A study of Mus musculus with 18 samples.

Results

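Imprinted genes were followed through 6 populations of mouse lung cancer cells. The set is a list of 32 gene symbols, taken from the classical imprinted clusters of the mouse. A transcript was listed for 25 of the 32, out of 36047 genes in all. The 7 others are noncoding RNAs (H19, Meg3, Rian, Mirg, Kcnq1ot1, Airn and Peg13) and their expression was not analysed here.

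An imprinted gene is transcribed mainly from the copy inherited from one parent. The silent copy is marked in the germ line by DNA methylation at a control region, and the mark is copied at each cell division by DNMT1 and UHRF1. In the early embryo, ZFP57 and ZFP445 bind the methylated copy and recruit TRIM28 to keep the mark. Imprinted genes lie in clusters that share a control region, many of them drive or limit growth of the fetus and placenta, and many are turned down after birth, in the lung as elsewhere. Paternally expressed members of the list include Peg10, Sgce, Peg3, Mest, Snrpn, Igf2, Dlk1 and Plagl1. Maternally expressed members include Cdkn1c, Phlda2 and Ube3a, the last of these in neurons. The counts used here do not separate the parental copies, so a level says nothing of which copy was transcribed.

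The RNA came from 2 lines of mouse lung tumour cells that carried constructs against or for the kinase DSTYK, or their empty vectors, in 3 libraries per population and 18 in all. LLC (Lewis lung carcinoma) is labelled a lung adenocarcinoma of strain C57BL/6, and UN-SCC679 a lung squamous carcinoma of strain A/J. LLC with the sh3 construct in the vector TPLKO was set against LLC with empty TPLKO, and UN-SCC679 with sh3 in TPLKO against UN-SCC679 with empty TPLKO. All 12 libraries of these 4 populations were treated with doxycycline. UN-SCC679 with OE_DSTYKwt in the vector pLENTI6 was set against UN-SCC679 with empty pLENTI6, and the treatment label of these libraries reads N.A. DSTYK was lowered with 1 construct per line, so nothing separates a change due to DSTYK from one due to that construct or to the selection of that population. The labels do not say that the 3 libraries of a population came from separate cultures. The p-values therefore rest on the variation among 3 libraries of each population, and this may be technical variation.

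Libraries held between 40314123 and 46273788 counts assigned to genes. Levels are given as CPM, counts over the library total on a per-1e+06 scale, with library totals scaled by trimmed means of M-values (TMM) over the 18 libraries. Dstyk averaged 23.6 ± 0.79 CPM in LLC sh3 and 42.5 ± 2.06 CPM in LLC empty TPLKO (SD, n = 3 each). It averaged 25.9 ± 0.90 CPM in UN-SCC679 sh3 and 36.9 ± 1.02 CPM in UN-SCC679 empty TPLKO, and 37.6 ± 0.74 CPM with OE_DSTYKwt and 30.8 ± 1.56 CPM with empty pLENTI6. In each of the 3 pairs the groups did not overlap. Squamous and basal markers summed to between 38.4 and 156 CPM in the UN-SCC679 libraries and to at most 0.175 CPM in the LLC libraries. Krt5 was at 0 in UN-SCC679 empty TPLKO, and Dsg3 at 0 in 3 of the 4 UN-SCC679 populations. Of the defining alveolar and club markers, Sftpc and Scgb1a1 were at 0 in both LLC populations and off in every UN-SCC679 population. The alveolar and club markers summed to between 36.93 and 67.27 CPM in the UN-SCC679 libraries and between 1.54 and 11.957 CPM in the LLC libraries. This list was thus higher in the line labelled squamous than in the line labelled adenocarcinoma. Nkx2-1 averaged 36.53 to 55.98 CPM in the UN-SCC679 populations and at most 0.038 CPM in LLC. Hopx was on in both LLC populations. The first library of UN-SCC679 empty pLENTI6 stood apart from the 2 others of its group, with a mean chi-square per gene of 12.2 and 13.8, against at most 5.04 for any other pair within a group. Which members were called in tests with this library is given with and without it. Values of genes and lists other than the members are given with it only.

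A gene is called on in a population where all 3 libraries have at least 1 CPM, off where all 3 have under 0.1 CPM, and low otherwise. The UN-SCC679 line had fewer listed imprinted genes on than LLC. Of the 25 members, 15 were on, 2 low and 8 off in LLC sh3, and 14 on, 2 low and 9 off in LLC empty TPLKO. In UN-SCC679 sh3, 8 were on, 10 low and 7 off, and in UN-SCC679 empty TPLKO 6 were on, 6 low and 13 off. UN-SCC679 with OE_DSTYKwt and with empty pLENTI6 each had 6 on, 6 low and 13 off. Among all genes the share on was 31.1% to 33.1% over the 6 populations, so the line difference among members did not come with a like difference over the genome. The share of all genes off was 51.9% to 54.7%. All members counted here are protein-coding. Among protein-coding genes alone the share on was 49.4% to 52.1% and the share off 31.2% to 35.3%. Against these, the share of members on was above in LLC and below in UN-SCC679. The shares of all genes given further on include noncoding genes too.

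Members expressed from the paternal copy made up most of that difference, but they also make up most of the list, with 18 of 25. Of the 18 paternally expressed members, 11 were on in LLC sh3 and 10 in LLC empty TPLKO. In UN-SCC679, 5 were on with sh3, 3 with empty TPLKO, 4 with OE_DSTYKwt and 4 with empty pLENTI6. The 5 maternally expressed members had 2 on in each LLC population and 1 on, Ube3a, in each UN-SCC679 population. These counts move with the threshold. With on set at 0.5 CPM, 11 paternally expressed members were on in each LLC population, 8 in UN-SCC679 sh3 and 5 in each of the 3 other UN-SCC679 populations, and with on set at 1 TPM 5 were on in every UN-SCC679 population. With groups of 18 and 5, these are counts and not a test of a parental difference.

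There were 4 members on in all 6 populations, where 28.3% of all genes were. They were Gnas, which encodes the stimulatory G protein alpha subunit; Ube3a, a ubiquitin ligase; Zrsr1, a splicing factor retrogene; and Impact, a regulator of the GCN2 translation response. The 3 members off in all 6, where 44.7% of all genes were off, were Magel2, a paternally expressed gene of the Prader-Willi region, and the fetal growth genes Igf2 and Dlk1. On in none were also the cell cycle inhibitor Cdkn1c; Phlda2, which limits growth of the placenta; Ndn, another gene of the Prader-Willi region; the retrotransposon-derived Rtl1; the zinc finger gene Zim1; and Nap1l5, a nucleosome assembly protein relative. That makes 9 of 25, against 64.1% of all genes on in none. Nnat, which encodes a small membrane protein of neurons, was on in LLC sh3 and low elsewhere, with means between 0.871 and 1.37 CPM. Per length, Gnas had the highest mean level of the members in every population, between 672 and 746 TPM, a unit that divides counts by transcript length. The highest mean level per length after it was that of Slc38a4 in LLC, at 77.9 TPM with sh3 and 94.1 TPM with empty TPLKO, and that of Impact in UN-SCC679, at 107 TPM with sh3 and 147 TPM with empty TPLKO.

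**Figure D1:**
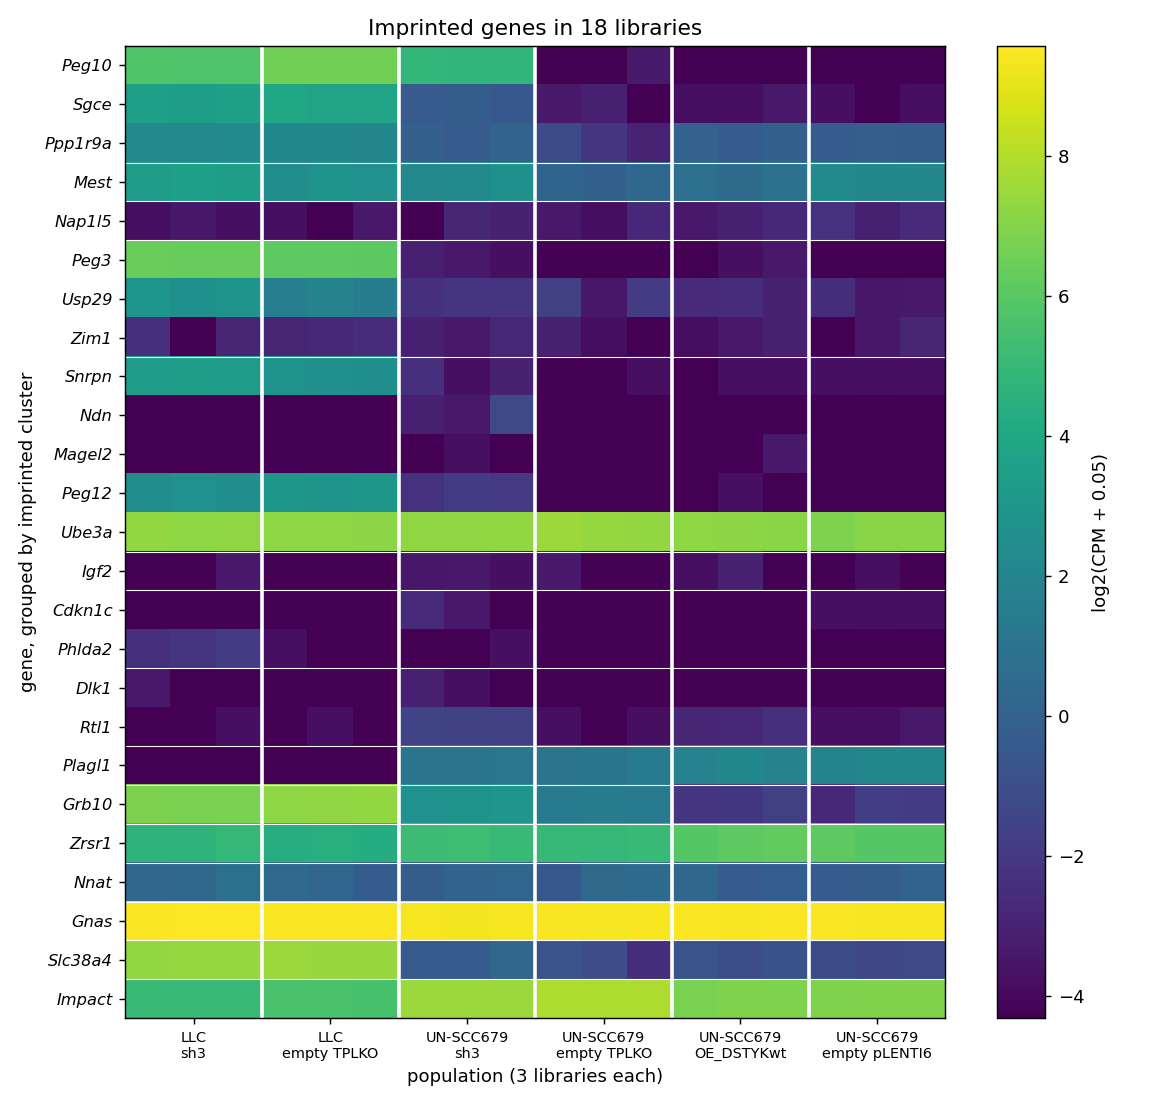
Levels of the 25 imprinted genes with a listed transcript (rows, grouped by cluster) in the 18 libraries (columns, 3 per population), as log2(CPM + 0.05). Peg3, Snrpn, Peg12 and Slc38a4 are bright in LLC and dark in UN-SCC679, Plagl1 is the other way round, and Peg10 is bright in UN-SCC679 with sh3 only among the 4 UN-SCC679 populations.

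Promoter sequence is shown for genes that were on in only one line, Peg3 in LLC and Plagl1 in UN-SCC679, and for the pair of alternative starts of Grb10 described further on. The windows are from RefSeq on GRCm38.p6 and run from 250 bases before a start to 50 after it, 300 bases in all. Capitals mark the letters TGCCGC on either strand (GCGGCA when read from the other strand), the hexamer that ZFP57 recognises when its CpG is methylated.
Peg3, chr7:6730370-6730669, minus strand: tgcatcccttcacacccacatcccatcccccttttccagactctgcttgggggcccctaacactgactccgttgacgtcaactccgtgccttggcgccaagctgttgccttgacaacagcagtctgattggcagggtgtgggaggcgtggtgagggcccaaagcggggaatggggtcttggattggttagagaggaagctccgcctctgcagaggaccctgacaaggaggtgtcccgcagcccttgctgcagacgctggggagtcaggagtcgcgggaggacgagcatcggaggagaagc
Plagl1, chr10:13090582-13090881, plus strand: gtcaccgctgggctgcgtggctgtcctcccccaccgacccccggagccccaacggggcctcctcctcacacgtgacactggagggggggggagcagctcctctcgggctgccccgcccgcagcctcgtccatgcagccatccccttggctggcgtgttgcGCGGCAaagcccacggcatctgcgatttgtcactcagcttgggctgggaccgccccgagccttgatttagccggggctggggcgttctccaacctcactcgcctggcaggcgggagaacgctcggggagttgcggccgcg
Grb10, chr11:12037371-12037670, minus strand: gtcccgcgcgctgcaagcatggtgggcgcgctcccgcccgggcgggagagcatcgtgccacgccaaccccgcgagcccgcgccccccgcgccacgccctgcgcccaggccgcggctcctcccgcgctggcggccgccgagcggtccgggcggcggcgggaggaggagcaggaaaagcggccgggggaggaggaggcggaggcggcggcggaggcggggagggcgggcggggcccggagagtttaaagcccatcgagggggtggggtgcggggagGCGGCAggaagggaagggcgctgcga
Grb10, chr11:12027922-12028221, minus strand: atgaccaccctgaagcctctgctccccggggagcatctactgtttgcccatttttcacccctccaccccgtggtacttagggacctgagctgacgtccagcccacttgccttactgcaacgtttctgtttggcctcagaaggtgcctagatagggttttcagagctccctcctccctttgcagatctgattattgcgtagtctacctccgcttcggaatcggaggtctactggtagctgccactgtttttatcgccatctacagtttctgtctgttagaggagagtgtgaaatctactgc
The hexamer was found once in the Plagl1 window and once in the upstream Grb10 window, and its letters were not found in the Peg3 window or the downstream Grb10 window. The upstream Grb10 window has 45 CpG and the downstream one 9, against 13 for Peg3 and 26 for Plagl1. In all, 25 of the 32 members matched the promoter table, noncoding ones such as Meg3 included, with 41 windows, of which 10 (24.4%) held the hexamer on at least one strand, against 11.6% of all 32851 promoters in the table. Of the 10, 2 are Mest windows that start 3 bases apart and so are nearly one sequence. These are matches of letters in a window and not binding sites. The median number of CpG was 11 in the members' windows and 7 in all windows. The hexamer itself holds a CpG, and its share over windows of like CpG number was not computed. The hexamer shares are therefore not read further. Peg3 and Usp29 start 147 bases apart on opposite strands, and their windows share 263 bases. Peg10 and Sgce start 99 bases apart, also on opposite strands. The table held no window for Peg10, Sgce, H19, Impact, Rtl1, Cdkn1c and Peg13.

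Peg10 was the one member that went between off and on within a line. Peg10 is a gene derived from a retrotransposon that encodes a capsid-like protein, needed for the mouse placenta, and it lies at chr6:4747306-4760517 on the plus strand of GRCm38. In UN-SCC679 sh3 it had 1321, 1241 and 1175 counts in the 3 libraries, against 0, 0 and 2 counts in UN-SCC679 empty TPLKO. All 3 sh3 libraries were far above all 3 empty ones. It had 0 counts in each of the 3 OE_DSTYKwt libraries and each of the 3 empty pLENTI6 libraries. A count of 0 allows up to 3 counts per library, about 0.07 CPM. Peg10 thus averaged 28.8 ± 0.57 CPM in UN-SCC679 sh3 and 0.017 ± 0.029 CPM in UN-SCC679 empty TPLKO (SD, n = 3 each). The summed counts were 3737 with sh3 and 2 with empty TPLKO, a ratio of 1824 with a 95% counting interval of 505 to 15067. The interval covers counting error only. Peg10 passed the low-count filter in this comparison through its sh3 libraries alone, so a difference was bound to be found. In edgeR's quasi-likelihood test with Benjamini-Hochberg adjustment it had an adjusted p of 3.08e-12.

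Going from off to on was rare among all genes in that comparison. The same step was taken by 42 of 36047 genes, or 0.117%, which were on in UN-SCC679 sh3 and off in UN-SCC679 empty TPLKO, and Peg10 had the highest sh3 level in CPM of them. The next were C3 at 23.9 CPM, Trim30d at 22.0 CPM and Gas7 at 21.6 CPM. The opposite step, off with sh3 and on with empty TPLKO, was taken by 0.00277% of genes and by no member. The empty TPLKO value lies near a stricter limit: with off set under 0.05 CPM, the third empty library, at 0.05 CPM, makes Peg10 low there and no member goes from off to on. In bulk RNA, more cells expressing a gene and more RNA per cell cannot be told apart. Marker sums also moved between these groups. The 6 leukocyte markers summed to 2.74 to 3.25 CPM in UN-SCC679 sh3 and 0.851 to 1.30 CPM in UN-SCC679 empty TPLKO. Of these 6, 4 were off with sh3, and most of the sum was Csf1r, a macrophage receptor gene, at 2.56 ± 0.30 CPM with sh3 and 0.794 ± 0.183 CPM with empty TPLKO. The 6 squamous and basal markers summed to 61.4 to 63.9 CPM with sh3 and 38.4 to 45.3 CPM with empty TPLKO, and the 6 epithelial markers to 352 to 374 CPM with sh3 and 563 to 590 CPM with empty TPLKO. The 6 mesenchymal and fibroblast markers summed to 3049 to 3222 CPM with sh3 and 2793 to 2916 CPM with empty TPLKO. Among them Pdgfra was at 55.9 ± 1.71 CPM with sh3 and 6.86 ± 0.42 CPM with empty TPLKO, and Col1a1 at 1072 ± 34.6 CPM with sh3 and 522 ± 8.74 CPM with empty TPLKO. The 6 alveolar and club markers summed to 64.0 to 67.3 CPM with sh3 and 56.8 to 59.4 CPM with empty TPLKO. The sums of the 2 groups did not overlap in any of these 5 lists. Endothelial markers, the remaining list, did overlap, at 0.963 to 1.18 CPM with sh3 and 1.03 to 1.16 CPM with empty TPLKO. Of single genes tested in this comparison, 68.2% did not overlap. The part of the marker differences in the Peg10 result was not tested.

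In LLC the same gene moved the opposite way. Peg10 had 2447, 2425 and 2321 counts in LLC sh3, against 4431, 4035 and 4178 in LLC empty TPLKO, and the groups did not overlap. Its mean fell to 53.7 ± 1.06 CPM in LLC sh3, against 97.9 ± 0.91 CPM in LLC empty TPLKO (SD, n = 3 each). The fitted log2 change was -0.90 (SE 0.03, 1.87-fold lower; adjusted p = 7.83e-12, edgeR). The sh3 difference itself differed between the lines, by 11.51 on the log2 scale (SE 0.15; adjusted p of the interaction 6.43e-18, edgeR). The size of that difference depends on the small count edgeR adds to a group near 0. Peg10 passed the filter in UN-SCC679 through sh3 alone, so the interaction is given as a description only. Nearly all Peg10 counts were assigned to the transcript Peg10-203, with 98.1% in LLC sh3 and 96.5% in UN-SCC679 sh3.

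**Figure D2:**
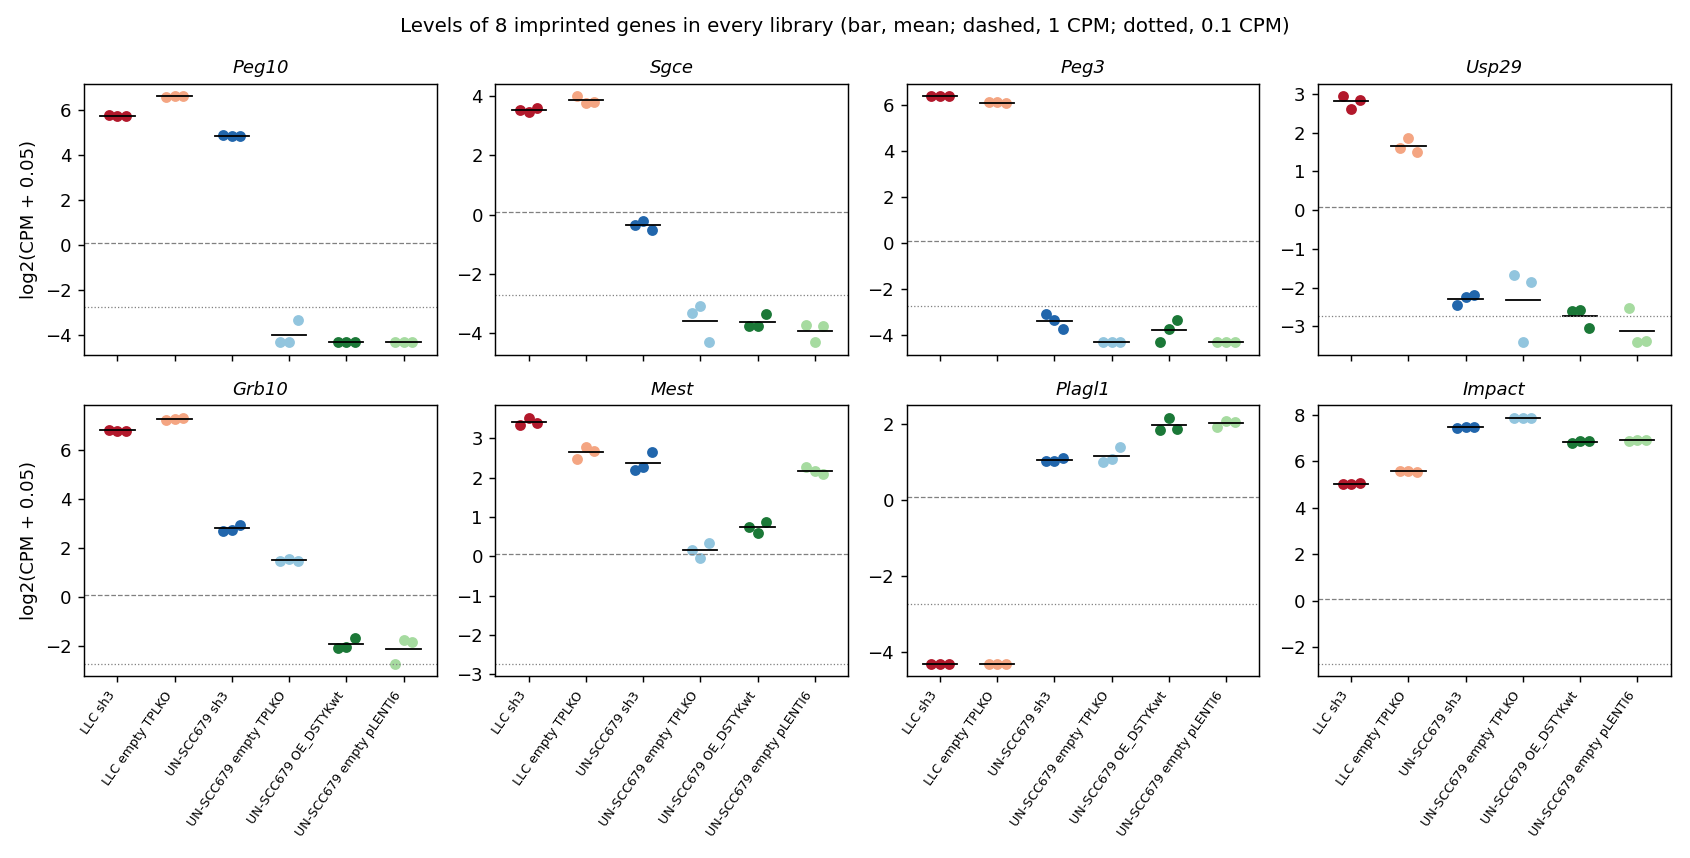
Each point is a library, on a log2(CPM + 0.05) scale, and black bars are means of 3 libraries; dashed and dotted lines mark 1 and 0.1 CPM, and each panel has its own axis. Peg10 is near 29 CPM in UN-SCC679 sh3 and at or near 0 in the 3 other UN-SCC679 populations, while Peg3 is above 66 CPM in every LLC library.

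Sgce, the neighbour that shares the Peg10 start region and encodes epsilon-sarcoglycan, moved with it at a far lower level. It had 33, 35 and 27 counts in UN-SCC679 sh3, against 2, 3 and 0 in UN-SCC679 empty TPLKO. The groups did not overlap, yet no UN-SCC679 sh3 library reached 1 CPM, so Sgce was low with sh3 and off with empty TPLKO. Sgce too passed the filter only through its sh3 libraries, with 0.731 ± 0.079 CPM in UN-SCC679 sh3 and 0.038 ± 0.034 CPM in UN-SCC679 empty TPLKO (log2 change 4.13, SE 0.56; adjusted p = 4.60e-05, edgeR). Per length, Sgce stood at 0.858 TPM in UN-SCC679 sh3 where Peg10 stood at 7.36 TPM. In LLC empty TPLKO, Sgce stood at 16.2 TPM where Peg10 stood at 24.7 TPM.
In LLC, Sgce had 511, 506 and 534 counts with sh3 and 737, 559 and 595 with empty TPLKO. The groups did not overlap, and Sgce fell by 0.37 on the log2 scale (SE 0.07; adjusted p = 0.000582, edgeR).

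Most tested genes within 1000 kb of Peg10 were also higher in UN-SCC679 sh3. Of 23 such genes other than Peg10, 10 were tested, 8 were higher and 1 was lower, and 1 (Bet1) was not called. Of all genes tested in that comparison 63.8% were called, 31.8% higher and 32% lower. The 10 include the members Sgce and Ppp1r9a, which reached the filter through sh3 and not through empty TPLKO. Gng11 too was high with sh3 and not with empty TPLKO, so the count is given as a description. Asb4, a component of a ubiquitin ligase that is imprinted in mouse, averaged 15.4 ± 1.29 CPM in UN-SCC679 sh3 and 0.536 ± 0.090 CPM in UN-SCC679 empty TPLKO, 28.8-fold higher (adjusted p = 3.74e-11, edgeR). Pdk4, a kinase that inhibits pyruvate dehydrogenase, averaged 96.4 ± 1.74 CPM in UN-SCC679 sh3 and 11.9 ± 0.24 CPM in UN-SCC679 empty TPLKO, 8.16-fold higher. Col1a2, a collagen chain, was lower at 8483 ± 137 CPM with sh3 and 11617 ± 176 CPM with empty TPLKO. Asb4 and Pdk4 were also higher with OE_DSTYKwt than with empty pLENTI6, 4.13-fold and 1.64-fold, in populations where Peg10 had no counts. In LLC, 8 neighbours were tested, 1 was higher and 3 were lower, against 72.6% of all tested genes called, 36.2% higher and 36.4% lower.

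**Figure D3:**
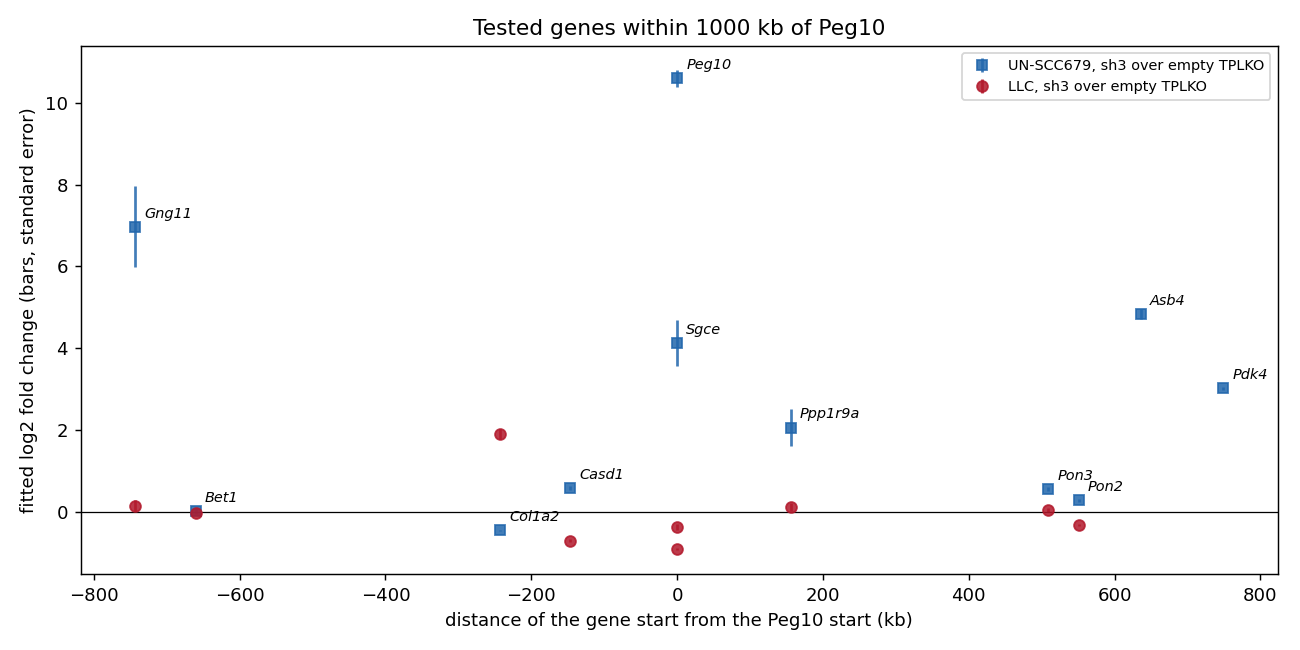
Fitted log2 change with sh3 over empty TPLKO (vertical axis; bars, standard error) against distance of each gene's start from that of Peg10 in kb, for tested genes within 1000 kb. In UN-SCC679 (squares) Peg10, Gng11, Asb4, Sgce, Pdk4 and Ppp1r9a lie above 2, while in LLC (circles) Col1a2 alone lies above 1.

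Ppp1r9a, a maternally expressed member of the same cluster that encodes the actin-binding protein neurabin, had 40, 34 and 42 counts in UN-SCC679 sh3 and 16, 8 and 3 in UN-SCC679 empty TPLKO. The groups did not overlap, and the empty libraries differed widely among themselves. It averaged 0.895 ± 0.113 CPM with sh3 and 0.213 ± 0.158 CPM with empty TPLKO (log2 change 2.07, SE 0.46; adjusted p = 0.00181, edgeR). It passed the filter only through its sh3 libraries, and it was low in all 4 UN-SCC679 populations. On log2(TPM + 1) values with limma the call was lost, with an adjusted p of 0.0565. It averaged 0.895 ± 0.122 CPM with OE_DSTYKwt and 0.825 ± 0.053 CPM with empty pLENTI6.

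Mest was the member called in all 3 DSTYK comparisons. It encodes an enzyme of the alpha/beta hydrolase family, is paternally expressed and lies at chr6:30723547-30748465. It had 204, 208 and 258 counts in UN-SCC679 sh3 and 44, 42 and 49 in UN-SCC679 empty TPLKO. In LLC it had 451, 525 and 459 counts with sh3 and 252, 279 and 273 with empty TPLKO. With OE_DSTYKwt it had 72, 62 and 75 counts, against 195, 200 and 185 with empty pLENTI6.
The groups did not overlap in any of the 3 pairs, as was so for 68.2% of tested genes in UN-SCC679 with sh3, 75.7% in LLC with sh3 and 46.0% with OE_DSTYKwt. Mest was 4.88-fold higher in UN-SCC679 sh3 (5.18 ± 0.90 CPM, against 1.07 ± 0.15 CPM in UN-SCC679 empty TPLKO; adjusted p = 3.51e-07, edgeR). It was 1.67-fold higher in LLC sh3, at 10.7 ± 0.69 CPM against 6.25 ± 0.67 CPM in LLC empty TPLKO (adjusted p = 9.06e-06, edgeR). It was 2.76-fold lower with OE_DSTYKwt, at 1.63 ± 0.16 CPM against 4.49 ± 0.29 CPM with empty pLENTI6 (adjusted p = 1.62e-05, edgeR). Without the first empty pLENTI6 library that log2 change was -1.41 in place of -1.46 (adjusted p = 5.70e-06, edgeR). The empty vector populations of UN-SCC679 also differed in Mest. UN-SCC679 empty TPLKO, at 1.07 ± 0.15 CPM, was 4.19-fold below UN-SCC679 empty pLENTI6, at 4.49 ± 0.29 CPM (log2 change -2.07, SE 0.15; adjusted p = 1.01e-06, edgeR), and -2.00 without the first pLENTI6 library. These 2 populations differ in vector, in doxycycline and in experiment, which cannot be told apart. The file headers also give the UN-SCC679 libraries of the 2 vectors different cell names, and whether they are one subline is not stated.

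Grb10, an adaptor that limits signalling from the insulin and insulin-like growth factor receptors, is expressed from the maternal copy in most tissues and from the paternal copy in neurons, by different promoters. It had 290, 286 and 314 counts in UN-SCC679 sh3 and 112, 128 and 108 in UN-SCC679 empty TPLKO. It had 5047, 4982 and 4804 counts in LLC sh3 and 6862, 6190 and 6769 in LLC empty TPLKO.
The groups did not overlap in either line, and the direction was opposite. Grb10 was 2.52-fold higher in UN-SCC679 sh3 (6.87 ± 0.60 CPM, against 2.74 ± 0.07 CPM in UN-SCC679 empty TPLKO; adjusted p = 5.03e-07, edgeR). In LLC sh3 it was 1.42-fold lower (111 ± 2.28 CPM, against 153 ± 4.53 CPM in LLC empty TPLKO; adjusted p = 1.20e-09, edgeR). The difference between the lines was 1.84 on the log2 scale (SE 0.09; adjusted p = 3.03e-11, edgeR interaction).
Grb10 also differed between the empty vectors of UN-SCC679. It had 112, 128 and 108 counts with empty TPLKO against 4, 11 and 10 with empty pLENTI6, a 14.1-fold difference (log2 change 3.82, SE 0.27; 3.54 without the first pLENTI6 library). With OE_DSTYKwt it had 8, 8 and 11 counts, and it did not reach the low-count filter in that comparison.

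The estimated counts of Grb10 were split between the starts whose promoters are printed above. The upstream start, with 45 CpG in its window, took 67.5%, 45.7% and 25.7% of the Grb10 counts in the 3 UN-SCC679 sh3 libraries, and 0%, 25.5% and 0% in the UN-SCC679 empty TPLKO libraries. The shares in the 2 groups did not overlap, but they spread widely within each. In LLC sh3 the upstream start held 95.9 ± 3.97% and in LLC empty TPLKO 89.5 ± 9.85% (SD, n = 3 each). With OE_DSTYKwt and with empty pLENTI6 no count was assigned to it, out of 4 to 11 counts per library. In counts, the downstream start averaged 161 ± 69.2 in UN-SCC679 sh3 and 104 ± 8.37 in UN-SCC679 empty TPLKO, and the upstream start 136 ± 57.8 in UN-SCC679 sh3 and 10.9 ± 18.8 in UN-SCC679 empty TPLKO. The transcripts share most of their exons, so kallisto assigns many reads by likelihood, and the split within a library carries more error than the gene total. Mest has a like pair of starts, and its split varied so much among libraries of a group, between 50.2% and 93.9% upstream in LLC sh3, that no comparison was made. Gnas, which uses several promoters with different parental copies, had 94.4% to 98.1% of its counts at the start group that makes the main G protein subunit, in all 6 populations.

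**Figure D4:**
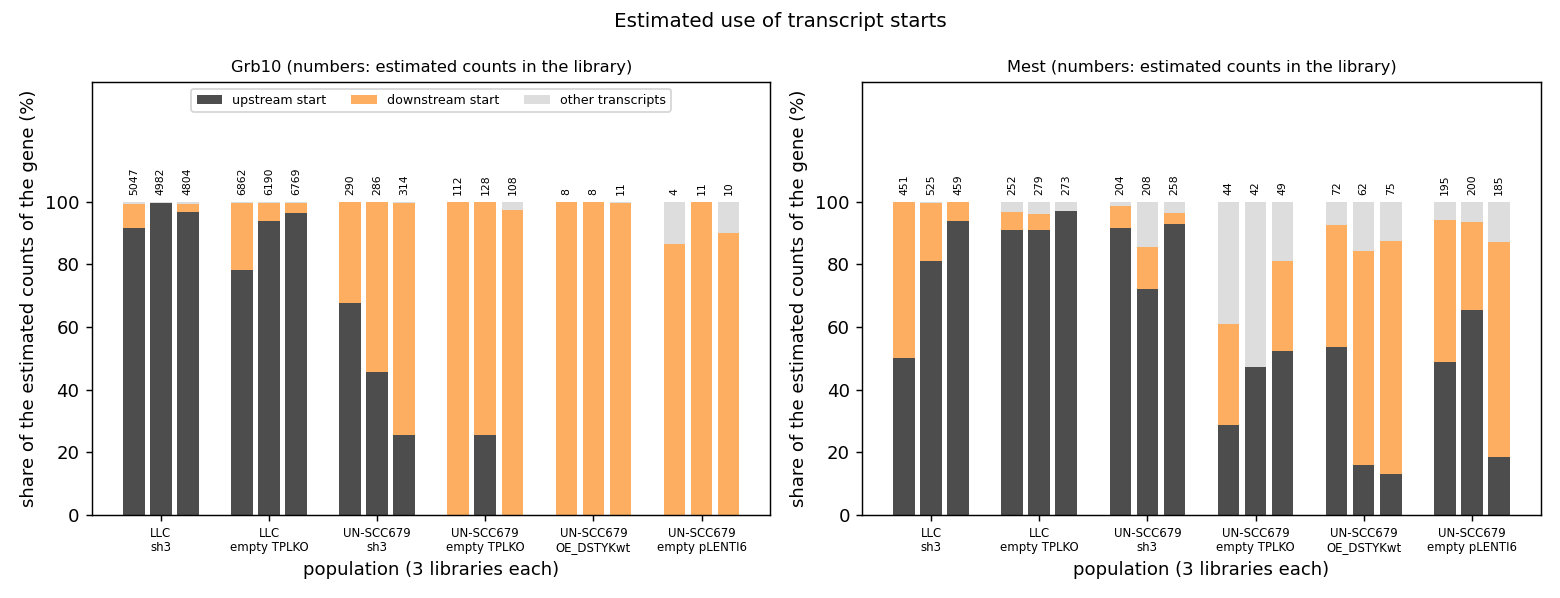
Share of the estimated counts of Grb10 (left) and Mest (right) in each library assigned to the upstream start (dark), the downstream start (orange) and other transcripts (grey), with the gene's estimated counts above each bar. In LLC, Grb10 is mostly upstream, and in UN-SCC679 the upstream share is 25.7% or more in each sh3 library. It is 0% in 2 of 3 empty TPLKO libraries, and in the remaining one it lies just under the lowest sh3 share.

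Slc38a4 and Rtl1 rose in UN-SCC679 sh3 and stayed at low levels. Slc38a4, a paternally expressed amino acid transporter, had 32, 34 and 47 counts in UN-SCC679 sh3 and 22, 20 and 5 in UN-SCC679 empty TPLKO (0.876 ± 0.224 CPM with sh3 and 0.366 ± 0.213 CPM with empty TPLKO; log2 change 1.25, SE 0.44; adjusted p = 0.0266, edgeR). That call was lost without the third empty TPLKO library, the one with 5 counts, at a log2 change of 0.85 and an adjusted p of 0.0668, without the second sh3 library at 0.0530 and without the third sh3 library at 0.109. Rtl1, another retrotransposon-derived gene needed for the placenta, had 14, 12 and 11 counts in UN-SCC679 sh3 and 1, 0 and 1 in UN-SCC679 empty TPLKO. The summed counts of Rtl1 were 37 with sh3 and 2 with empty TPLKO, a ratio of 18.1 with a counting interval of 4.66 to 155. Both were low in UN-SCC679 sh3 and passed the filter only through sh3. Further traces appeared in some of the members too low to be tested. Peg12 had 7, 10 and 8 counts in UN-SCC679 sh3 and 0 in each UN-SCC679 empty TPLKO library, which is at least 2.72-fold higher against the limit of 3 counts per library. Ndn had 3, 2 and 15 counts in UN-SCC679 sh3 and 0 in each empty TPLKO library, with 1 sh3 library holding most of them, and it was at 0 in all LLC libraries. Peg3 had 3, 2 and 1 counts in UN-SCC679 sh3 and 0 in each UN-SCC679 empty TPLKO library, and it remained off by the thresholds used. Not all untested members rose. The summed counts of Usp29 were 20 with sh3 and 22 with empty TPLKO in UN-SCC679, and those of Nap1l5 were 7 and 7.

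Over the tested members of UN-SCC679, 10 of 13 were called with sh3 over empty TPLKO, 8 higher and 2 lower, and 7 of the 10 at least 2-fold, against 63.8% of all tested genes called and 10.3% called at 2-fold or more. Of these 13, 5 (Peg10, Sgce, Ppp1r9a, Rtl1 and Slc38a4) passed the filter only through the sh3 libraries, which favours a higher value with sh3. All 5 are among the 7, so neither count is read further. The 12 other listed members were too low to test. The 8 that reached the filter in both groups or with empty TPLKO were Mest, Ube3a, Plagl1, Grb10, Zrsr1, Nnat, Gnas and Impact. Among them Zrsr1 was higher by 0.22, Impact was lower by a log2 change of -0.39 and Ube3a was lower by -0.10. The Ube3a call was lost in 5 of the alternatives tried. Plagl1, Nnat and Gnas were not called.

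In LLC, 11 of 15 tested members were called with sh3 over empty TPLKO, 5 higher and 6 lower, close to the background share of 72.6%. No member went from off to on or from on to off, nor did more than 0.00555% of all genes in either direction. Among the 15 tested members the largest change, and the only one of at least 2-fold (12.2% of all tested genes), was of Usp29, which starts beside Peg3 and encodes a ubiquitin protease. It had 342, 280 and 313 counts in LLC sh3 and 137, 147 and 118 in LLC empty TPLKO. The groups did not overlap, and Usp29 was 2.18-fold higher, at 6.99 ± 0.80 CPM in LLC sh3 and 3.12 ± 0.43 CPM in LLC empty TPLKO (adjusted p = 3.46e-06, edgeR). Peg3, a zinc finger gene, had 3692, 3771 and 3571 counts in LLC sh3 and 3134, 2790 and 2817 in LLC empty TPLKO, a log2 change of 0.25 (adjusted p = 1.71e-06, edgeR). Both genes of this start region were higher in LLC sh3, by different amounts. Snrpn, of the spliceosome, was higher by 0.63 and Zrsr1 by 0.41, while Impact was lower at -0.57, Peg12 at -0.40 and Slc38a4 at -0.13. Ppp1r9a, Ube3a, Nnat and Gnas were not called. The 10 other listed members were too low to test in LLC. Of these, Phlda2 had 6, 8 and 10 counts in LLC sh3 and 1, 0 and 0 in LLC empty TPLKO, so it was low with sh3 and off with empty TPLKO. The summed counts of Phlda2 were 24 with sh3 and 1 with empty TPLKO, a ratio of 23.2 with a counting interval of 3.78 to 952.

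**Figure D5:**
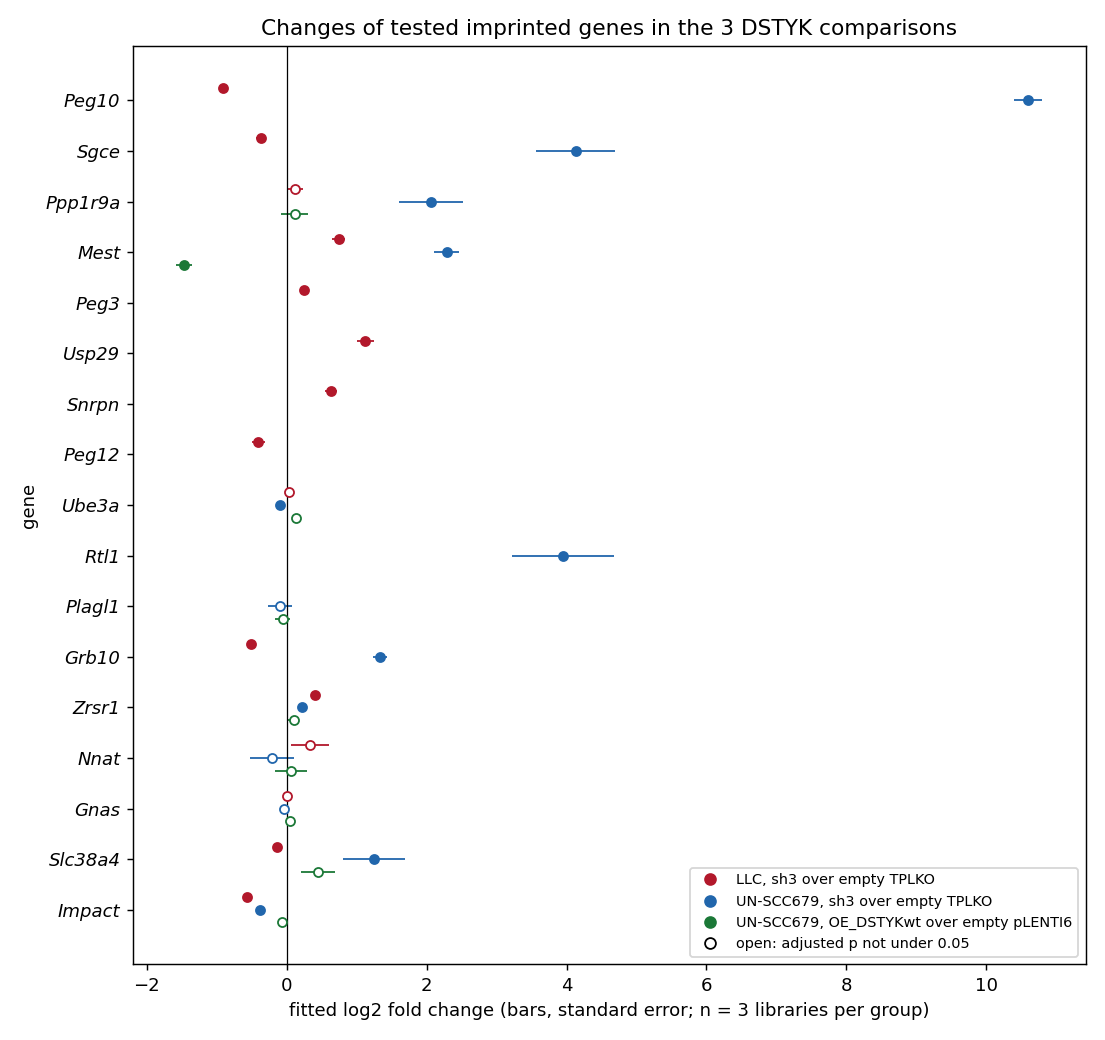
Fitted log2 fold changes of the imprinted genes tested in at least one of the 3 DSTYK comparisons, with standard errors and n = 3 libraries per group; filled points have an adjusted p under 0.05. In UN-SCC679 sh3 Peg10 is at 10.60, and Mest lies to the right in both lines with sh3 and to the left, at -1.46, with OE_DSTYKwt.

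With OE_DSTYKwt in UN-SCC679 no member went from off to on, as no gene at all did, or from on to off, as 0.0333% of genes did. Of 9 tested members 1, Mest, was called, against 29.7% of all tested genes, 14.6% higher and 15.2% lower. Its change was over 2-fold, as was that of 2.54% of tested genes. The 16 other listed members were too low to test. Without the first empty pLENTI6 library 3 of 10 tested members were called, beside 4936 of all 14210 tested genes. Those added were Gnas at a log2 change of 0.09 (adjusted p = 0.00299, edgeR) and Impact at -0.08 (adjusted p = 0.0287, edgeR). Rtl1 was low with OE_DSTYKwt (4, 4 and 6 counts) and off with empty pLENTI6 (1, 1 and 2 counts), and Nap1l5 was off with OE_DSTYKwt and low with empty pLENTI6.

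The direct test of whether the sh3 difference differed between the lines called 12 of 17 members, 10 higher and 2 lower in UN-SCC679, against 60.0% of all genes tested, 31.9% higher and 28.1% lower (15.5% by at least 2-fold). Of the 11 members tested in both lines, 8 were called, against 67.8% of the 12834 genes tested in both. Of the 8, Peg10, Sgce, Ppp1r9a and Slc38a4 reached the filter in UN-SCC679 through sh3 alone, and Peg3, Snrpn and Peg12, called among the 17, were near 0 in that line. The number of members higher in UN-SCC679 is therefore largely set by the filter and is read no further. Besides Peg10 and Grb10 they were Sgce (4.50, SE 0.39), Ppp1r9a (1.95, SE 0.38), Mest (1.55, SE 0.20), Slc38a4 (1.37, SE 0.30), Impact (0.19, SE 0.03) and Ube3a (-0.12, SE 0.04), as log2 differences of UN-SCC679 minus LLC. Grb10, which reached the filter in both groups of both lines, was called in each line with opposite signs. The calls of Ube3a, Ppp1r9a and Impact in this test were lost in at least 1 of the alternatives.

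The widest contrast among imprinted genes was between the lines. It was measured on the empty TPLKO populations, which share vector and doxycycline; line, strain, tumour type and experiment cannot be told apart, and these libraries also serve as controls of the sh3 comparisons. Peg10, Sgce, Peg3, Snrpn and Peg12 were off in UN-SCC679 empty TPLKO and on in LLC empty TPLKO, as were 180 of 36047 genes (0.499%). Peg3 had 0 counts in each UN-SCC679 empty TPLKO library, against 3134, 2790 and 2817 in LLC empty TPLKO, so it was at least 953-fold lower. Peg12 had 0 counts in each UN-SCC679 empty TPLKO library, against 377, 294 and 343 in LLC empty TPLKO, so it was at least 110-fold lower. Snrpn had 0, 0 and 1 counts in UN-SCC679 empty TPLKO, against 324, 250 and 254 in LLC empty TPLKO, and was higher in LLC by a ratio of 812 with a counting interval of 145 to 32118. The neighbours Ndn and Magel2 in the Snrpn cluster had 0 counts in all libraries of both groups and thus were off in both empty TPLKO populations. Ube3a, on the far side of the cluster, was at 168 ± 8.38 CPM in UN-SCC679 empty TPLKO and 146 ± 2.73 CPM in LLC empty TPLKO.

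Members that were low in UN-SCC679 empty TPLKO and on in LLC empty TPLKO were Slc38a4, Usp29, Ppp1r9a and Mest. Slc38a4 had 22, 20 and 5 counts in UN-SCC679 empty TPLKO and 8158, 7086 and 7233 in LLC empty TPLKO, a 465-fold lower level. Ppp1r9a was 19.4-fold lower, Usp29 17.6-fold lower and Mest 5.83-fold lower in UN-SCC679 empty TPLKO. Grb10, on in both, was 55.8-fold lower. A single member was on in UN-SCC679 empty TPLKO and off in LLC empty TPLKO, as were 325 genes (0.902%). This was Plagl1, a zinc finger gene of growth arrest, which had 81, 93 and 103 counts in UN-SCC679 empty TPLKO and 0 in every LLC library, at least 31.5-fold higher. Plagl1 was on in all 4 UN-SCC679 populations, with 90, 86 and 88 counts in sh3, 157, 187 and 152 in OE_DSTYKwt and 152, 188 and 180 in empty pLENTI6. Impact was 4.92-fold higher, at 233 ± 1.43 CPM in UN-SCC679 empty TPLKO and 47.4 ± 1.01 CPM in LLC empty TPLKO. Of 16 tested members 15 were called, 4 higher and 11 lower, against 82.9% of all tested genes, 42.0% higher and 40.9% lower. Groups did not overlap for 15 of the 16 members and for 84.2% of tested genes, and 12 of the 16 differed at least 2-fold, against 35.3% of tested genes. Of these 16, 9 reached the filter in 1 line only, which favours a difference. Across all 6 populations, 7 members (28.0% of 25) were on in both LLC populations and in no UN-SCC679 population, as were 1.07% of all genes. With on set at 0.5 CPM there were 4, without Sgce, Ppp1r9a and Slc38a4. The 7 were Sgce, Ppp1r9a, Peg3, Usp29, Snrpn, Peg12 and Slc38a4.

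Between the empty populations of UN-SCC679 no member was on in one and off in the other. Of all genes 0.161% were on with empty TPLKO and off with empty pLENTI6, and 0.0527% the other way round. Of 10 tested members 7 were called, 3 higher and 4 lower in empty TPLKO than in empty pLENTI6, against 68.7% of all tested genes, 33.3% higher and 35.4% lower. Of the 7, 3 differed at least 2-fold, against 14.4% of tested genes. Among these, Grb10 reached the filter through empty TPLKO alone and Ppp1r9a through empty pLENTI6 alone, which favours a difference. Slc38a4 too reached the filter through empty pLENTI6 alone, and it was not called (log2 change -0.008). In all, the groups did not overlap for 73.3% of tested genes. Besides Grb10 and Mest, Impact was higher by 0.96 and Ube3a by 0.36, while Ppp1r9a (-1.94), Zrsr1 (-0.997) and Plagl1 (-0.87) were lower, as log2 changes. Without the first pLENTI6 library these 7 were called too.

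Genes of the imprinting machinery, a list of 24 that write, keep, erase or read the marks, were mostly lower in LLC sh3. Of 21 tested in LLC, 4 were higher and 13 lower, with a median log2 change of -0.27 beside 0.01 over all tested genes, 36.2% of which were higher and 36.4% lower. Ctcf, which insulates the Igf2 and H19 region, fell by 1.17 (65.2 ± 1.13 CPM in LLC sh3 and 143 ± 1.85 CPM in LLC empty TPLKO). Trim28 fell by 0.71, Dnmt1 by 0.56 and Uhrf1 by 0.66 on the log2 scale, and Zfp57 rose by 0.86 (44.2 ± 0.49 CPM in LLC sh3 and 23.8 ± 0.45 CPM in LLC empty TPLKO). In UN-SCC679 sh3, 9 of 20 were higher and 7 lower, with a median of 0.04, beside 31.8% of all tested genes higher and 32% lower. The thymine DNA glycosylase Tdg fell by 0.60 there, while the histone methyltransferase genes Setdb1 and Ehmt2 rose by 0.35 and 0.28. With OE_DSTYKwt, 3 of 19 were called, all 3 lower, beside 29.7% of all tested genes called.
Between the lines, 4 of 21 were higher and 16 lower in UN-SCC679 empty TPLKO, with a median log2 change of -0.49, beside 42.0% of all tested genes higher and 40.9% lower. Dnmt3l, the cofactor that sets imprints in the germ line, averaged 0.057 ± 0.052 CPM in UN-SCC679 empty TPLKO and 9.23 ± 0.05 CPM in LLC empty TPLKO. Tet1, a demethylase that erases them, averaged 0.076 ± 0.069 CPM in UN-SCC679 empty TPLKO and 5.62 ± 0.37 CPM in LLC empty TPLKO. Both Dnmt3l and Tet1 reached the low-count filter, 0.235 CPM in this comparison, through LLC alone, which favours a lower value in UN-SCC679. The count of lower genes in this list is therefore given as a description. Dnmt1 and Uhrf1 were present in every population, at 277 to 483 CPM and 139 to 330 CPM.

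Genes in or beside the clusters that are not members, a list of 58 with 55 listed, had 16 higher and 10 lower of 32 tested in LLC sh3, and 16 higher and 9 lower of 34 tested in UN-SCC679 sh3. With OE_DSTYKwt 7 were higher and 5 lower of 31. The shares called were 81.3%, 73.5% and 38.7% of those tested, beside 72.6%, 63.8% and 29.7% of all tested genes in the same comparisons. The members' partners in insulin-like growth factor signalling, a list of 15, had 5 higher and 5 lower of 10 in LLC sh3, 6 higher and 6 lower of 13 in UN-SCC679 sh3, and 4 higher and 3 lower of 13 with OE_DSTYKwt. That is 100%, 92.3% and 53.8% of those tested, beside the same shares of all genes. Igf2 itself had at most 3 counts in any library. Igf2r, the clearance receptor for it and itself imprinted in the mouse, was 2.28-fold higher in UN-SCC679 sh3 (47.4 ± 1.20 CPM, against 21.0 ± 0.45 CPM in UN-SCC679 empty TPLKO; adjusted p = 1.98e-10, edgeR). It was 8.04-fold lower in UN-SCC679 empty TPLKO than in LLC empty TPLKO, where it had 169 ± 0.27 CPM. Irs2, an adaptor of the insulin receptor, was 2.81-fold lower in UN-SCC679 sh3, at 95.5 ± 1.83 CPM against 270 ± 5.29 CPM in UN-SCC679 empty TPLKO (adjusted p = 6.91e-13, edgeR).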

How the data were processed

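RNA of 18 libraries of 2 mouse cell lines was sequenced by the authors with a stranded Illumina mRNA kit and 75-base reads, per the labels' protocols. The submitters' processing notes name kallisto, sleuth and mm10, without versions. The deposited values are the authors' estimated counts (expected counts) per transcript, not normalized and not whole numbers, per the file headers. The deposited normalized column was not used. Of 118489 transcripts, 116816 matched a gene of GENCODE M21 on GRCm38; the rest held 0.515% to 0.593% of counts and were left out. Counts were summed per gene, rounded and tested with edgeR 4.0.16 in R 4.3.3 (TMM scaling, a minimum count of 10 and total of 15, quasi-likelihood test with Benjamini-Hochberg adjustment over all tested genes, threshold 0.05), on the libraries compared, or on 12 for the interaction. The procedure was tested on simulated data. TPM values were computed here from the counts and the deposited effective lengths. Standard errors come from the test's F statistic. Reads carry no molecular identifiers, so counting intervals cover counting error only. Estimated counts of near-identical genes are uncertain.

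Groups were read from the titles, since altered and empty arms carry one shared phenotype label. Members and lists were chosen with earlier results of these data known. Full values are given for Peg10, for members on in one population or line and off in another, and for members changed at least 2-fold in a DSTYK comparison; a comparison between the empty UN-SCC679 populations was added to show how far they differ. Alternatives were other scalings, DESeq2 1.42.0, limma 3.58.1 on log2(TPM + 1), other filters and thresholds, a replicate block and leaving out each library.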

Additional observations from a re-analysis of the deposited data

Results flagged for a closer look

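For 8 of the 11 members tested in both lines, the difference between sh3 and empty TPLKO was not the same in the 2 lines. This was by the test of that difference in edgeR on 12 libraries, which called 67.8% of the 12834 genes tested in both lines. As log2 differences of UN-SCC679 minus LLC they were Peg10 at 11.51, Sgce at 4.50, Ppp1r9a at 1.95, Mest at 1.55, Ube3a at -0.12, Grb10 at 1.84, Slc38a4 at 1.37 and Impact at 0.19. The Ube3a value lost its call in 7 of the alternatives. With limma on log2(TPM + 1), Impact (0.0236, adjusted p = 0.761) and Ppp1r9a (adjusted p = 0.0602) lost theirs too. Peg10, Sgce, Ppp1r9a and Slc38a4 reached the low-count filter in UN-SCC679 through the sh3 libraries alone, so the filter favoured a higher value there. With 3 libraries in each group, no test for an outlying library was run within a group.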

How the results depend on the processing

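The calls and directions of Peg10, Mest, Grb10 and Sgce held under every alternative in which they were tested. Peg10 and Sgce reached the filter in UN-SCC679 through sh3 alone, so for them in that line this is a description only. The number of members called moved by over 1.5 times in these cases: 6 in place of 10 in UN-SCC679 sh3 when genes needed at least 1 CPM in 3 libraries, because fewer members were tested, and 2 in place of 1 with OE_DSTYKwt with no filter. Leaving out 1 library gave 1 to 3 members with OE_DSTYKwt, with 3 of 10 tested when the first empty pLENTI6 library was left out. In that setting 4936 of all 14210 tested genes were called. With on set at 0.5 CPM and off under 0.05 CPM, 3 members in place of 7 were off in UN-SCC679 sh3, 0 in place of 1 went from off to on there, and 3 in place of 5 were off in UN-SCC679 empty TPLKO and on in LLC empty TPLKO. With on at 0.5 CPM, 4 members in place of 7 were on in both LLC and no UN-SCC679 populations, paternally expressed members on were 8 in place of 5 in UN-SCC679 sh3 and 5 in place of 3 in UN-SCC679 empty TPLKO (5 also at 1 TPM), and maternally expressed ones 2 in place of 1 in 3 UN-SCC679 populations. The replicate numbers do not pair the libraries: correlations of same-numbered deviations ran between -0.074 and 0.079. With the replicate block, 9 members in place of 10 were called in UN-SCC679 sh3 (Slc38a4 was lost, adjusted p = 0.0517, edgeR) and 10 in place of 12 in the test between lines, and the counts of the 4 other comparisons stayed at 11, 1, 15 and 7.

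Changes that turned sign were all uncalled, and the cause was not tested. With limma on log2(TPM + 1) these were Ppp1r9a at -0.0212 in LLC sh3, Plagl1 at 0.0009 in UN-SCC679 sh3, and Ppp1r9a at -0.0572, Plagl1 at 0.0763 and Impact at 0.0261 with OE_DSTYKwt. Gnas was at 0.0275 (library size) and 0.0116 (1 CPM filter) in LLC sh3 and 0.0229 (library size) in UN-SCC679 sh3. Between the empty UN-SCC679 populations Gnas was at -0.0295 (library size), -0.0175 (no filter) and -0.0365 (limma), and Slc38a4 at 0.0037 with DESeq2 size factors. Leaving out 1 library gave ranges across 0: Ube3a -0.0005 to 0.037 and Gnas -0.0218 to 0.0186 in LLC sh3; Plagl1 -0.1753 to 0.0285 in UN-SCC679 sh3; Plagl1 -0.162 to 0.0043 and Nnat -0.1533 to 0.1952 with OE_DSTYKwt; Nnat -0.0853 to 0.3721 between lines; and, between the empty UN-SCC679 populations, Gnas -0.01 to 0.049 and Slc38a4 -0.3495 to 0.3862.

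With 3 libraries per group and counts under about 10, members such as Rtl1, Ndn and Peg12 are limited by depth. Rtl1 lost its call with limma (adjusted p = 0.166).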
